A study of Homo sapiens with 12 samples.

Results

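Claudins and genes of epithelial identity were followed across human embryonic stem cells (hESC) and incipient mesoderm-like cells (iMeLC) with and without the catalytic domain of TET1. The genes were the claudins CLDN3, CLDN4, CLDN6, CLDN7 and CLDN10, the adhesion molecule EPCAM, the splicing regulator ESRP1 and the transcription factor GRHL2, taken by symbol from the 36762 gene symbols that each count table listed. All 8 genes were found in both tables and all 8 passed the filter on low counts in every comparison. The 4 groups were TET1 catalytic domain knockout (CDKO) iMeLC, control (CTRL) iMeLC, CDKO hESC and CTRL hESC, with 3 libraries each. All came from the hESC line UCLA1. The lines were CDKO1102, CDKO1105 and CDKO1312 and CTRL1101, CTRL1106 and CTRL1109. The sources used here do not give how the domain was removed, whether each line is a single clone, or how long the cells were differentiated. iMeLC are the short-lived cells through which hESC pass on the way to primordial germ cell-like cells, and the TET1 protein carries a catalytic domain that oxidises methylated cytosine in DNA.

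Claudins are membrane proteins with several membrane-spanning segments that join across neighbouring cells to form the strands of tight junctions. Which claudins a cell makes sets how tight its junctions are and which ions pass between cells. Human pluripotent stem cells grow as an epithelial sheet with tight junctions, E-cadherin and EPCAM at their surface, and cells that enter the primitive streak pathway lose parts of that programme. ESRP1 directs the epithelial pattern of splicing, and GRHL2 binds and activates genes of cell junctions, CLDN4 and the E-cadherin gene CDH1 among them in mouse and human epithelia.

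CLDN3 and CLDN4 are neighbours on chromosome 7 (GRCh38, CLDN3 at chr7:73768997-73770270 on the minus strand and CLDN4 at chr7:73799542-73832693 on the plus strand, GENCODE release 29), and both encode barrier-forming claudins. The RefSeq start sites of CLDN3 and CLDN4 lie 60.7 kb apart. The 300 bases around each start, 250 before and 50 after it, are shown because both genes were lower in iMeLC and CLDN4 was also lower in CDKO hESC. The sequence for METTL27, a putative methyltransferase gene next to CLDN4, is shown beside them because its levels fell with theirs in iMeLC. ABHD11, the neighbour on the other side of CLDN3, also fell in iMeLC, by less, and its sequence is not printed. The sequences are from RefSeq (GRCh38.p14), 5′ to 3′ on the strand of the gene, and capitals mark CG dinucleotides, the dinucleotide in which most methylated cytosine of human DNA lies. The windows are chr7:73830746-73831045 on the plus strand for CLDN4, chr7:73770221-73770520 on the minus strand for CLDN3 and chr7:73842467-73842766 on the minus strand for METTL27.
CLDN4: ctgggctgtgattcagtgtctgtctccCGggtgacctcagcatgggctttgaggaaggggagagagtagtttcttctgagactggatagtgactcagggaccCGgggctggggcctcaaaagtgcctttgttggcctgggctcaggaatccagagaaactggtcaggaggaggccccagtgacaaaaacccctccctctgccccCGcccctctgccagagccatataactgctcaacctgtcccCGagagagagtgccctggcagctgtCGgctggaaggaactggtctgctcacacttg
CLDN3: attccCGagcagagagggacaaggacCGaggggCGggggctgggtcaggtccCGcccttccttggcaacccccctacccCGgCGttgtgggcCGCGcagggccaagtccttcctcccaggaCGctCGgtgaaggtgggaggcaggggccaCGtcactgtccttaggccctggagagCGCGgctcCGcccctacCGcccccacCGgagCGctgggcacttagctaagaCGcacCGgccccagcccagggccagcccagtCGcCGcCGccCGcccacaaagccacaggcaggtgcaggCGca
METTL27: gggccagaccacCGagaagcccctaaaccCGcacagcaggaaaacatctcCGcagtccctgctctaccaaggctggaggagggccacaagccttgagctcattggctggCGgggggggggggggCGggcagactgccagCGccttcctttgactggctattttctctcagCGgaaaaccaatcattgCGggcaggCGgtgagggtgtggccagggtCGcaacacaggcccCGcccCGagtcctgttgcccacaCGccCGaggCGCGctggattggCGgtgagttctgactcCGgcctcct
The CLDN4 window held 5 CG dinucleotides, the CLDN3 window 24 and the METTL27 window 18, beside a median of 14 and quartiles of 4 and 28 over 35116 RefSeq promoters of that length. CLDN6 had 21. CLDN7 and CLDN10 have a pair of entries each, with 10 and 30 CG dinucleotides for CLDN7 and 12 and 36 for CLDN10. These 7 windows cover 5 of the 8 genes. The grainyhead motif AACCGGTT, searched on both strands, was in none of the 7 windows and in 0.134% of all promoters. A motif this rare is not expected in so few windows, so its absence says nothing about GRHL2 binding. The E-box CACCTG, bound by ZEB and SNAI repressors and searched on both strands, occurred 1 time in the CLDN3 window, 1 time in the CLDN6 window and 5 times in the second CLDN7 window, and 20.6% of all promoters held at least 1. No DNA methylation was measured in these libraries.

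The libraries held 52121702 to 109479071 counts in iMeLC and 12517593 to 18855099 counts in hESC. The iMeLC and hESC counts came in separate tables, so stage, depth and table cannot be told apart. The labels name separate lines within a group but no separate cultures, so p-values measure the spread between these libraries. Summed over 8 markers of pluripotent stem cells, levels were 5064 to 6060 CPM (counts scaled to a common library total) in iMeLC and 8107 to 9788 CPM in hESC, and no marker list had a gene at 0 in every library of a group. Counts over the whole TET1 gene cannot show the loss of a domain. They averaged 328 ± 26.1 CPM in CDKO iMeLC and 301 ± 18.5 CPM in CTRL iMeLC, and 369 ± 31.0 CPM in CDKO hESC and 311 ± 25.2 CPM in CTRL hESC (SD, n = 3 each; edgeR adjusted p = 0.577 in iMeLC and 0.209 in hESC).

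Levels between genes were compared as CPM per kilobase (kb), with the merged exons of all annotated transcripts of a gene as its length. In CTRL hESC the claudin of embryonic epithelia CLDN6 stood highest at 133 ± 14.8 CPM per kb and EPCAM followed at 50.3 ± 15.1 (SD, n = 3). CLDN3 (25.2 ± 0.856), ESRP1 (23.3 ± 1.10) and CLDN7 (20.01 ± 3.44) came next in mean CPM per kb, and the ranges of CLDN3 and ESRP1 touched, as did those of ESRP1 and CLDN7. GRHL2 (9.73 ± 0.411), CLDN10 (2.68 ± 0.174) and CLDN4 (1.53 ± 0.142) closed the order, each apart from its neighbours in all 3 libraries. The order was different in CDKO iMeLC. There EPCAM at 131 ± 8.86 CPM per kb and CLDN6 at 125 ± 5.32 CPM per kb overlapped between libraries, and CLDN3 had 4.33 ± 0.904 CPM per kb. CLDN4 was the lowest of the 8 in each of the 4 groups on this length. The order depends on the length chosen. A second length, that of the shortest principal coding transcript, was chosen after the values were seen. On it CLDN4, at 1.83 instead of 4.70 kb, was again the lowest in each group (3.93 ± 0.366 CPM per kb in CTRL hESC), but CLDN7 with 40.6 ± 6.98 and ESRP1 with 30.04 ± 1.42 CPM per kb stood above CLDN3 in CTRL hESC, and EPCAM (124 ± 20.9) stood above CLDN6 (122 ± 17.7) in CTRL iMeLC.

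**Figure D1:**
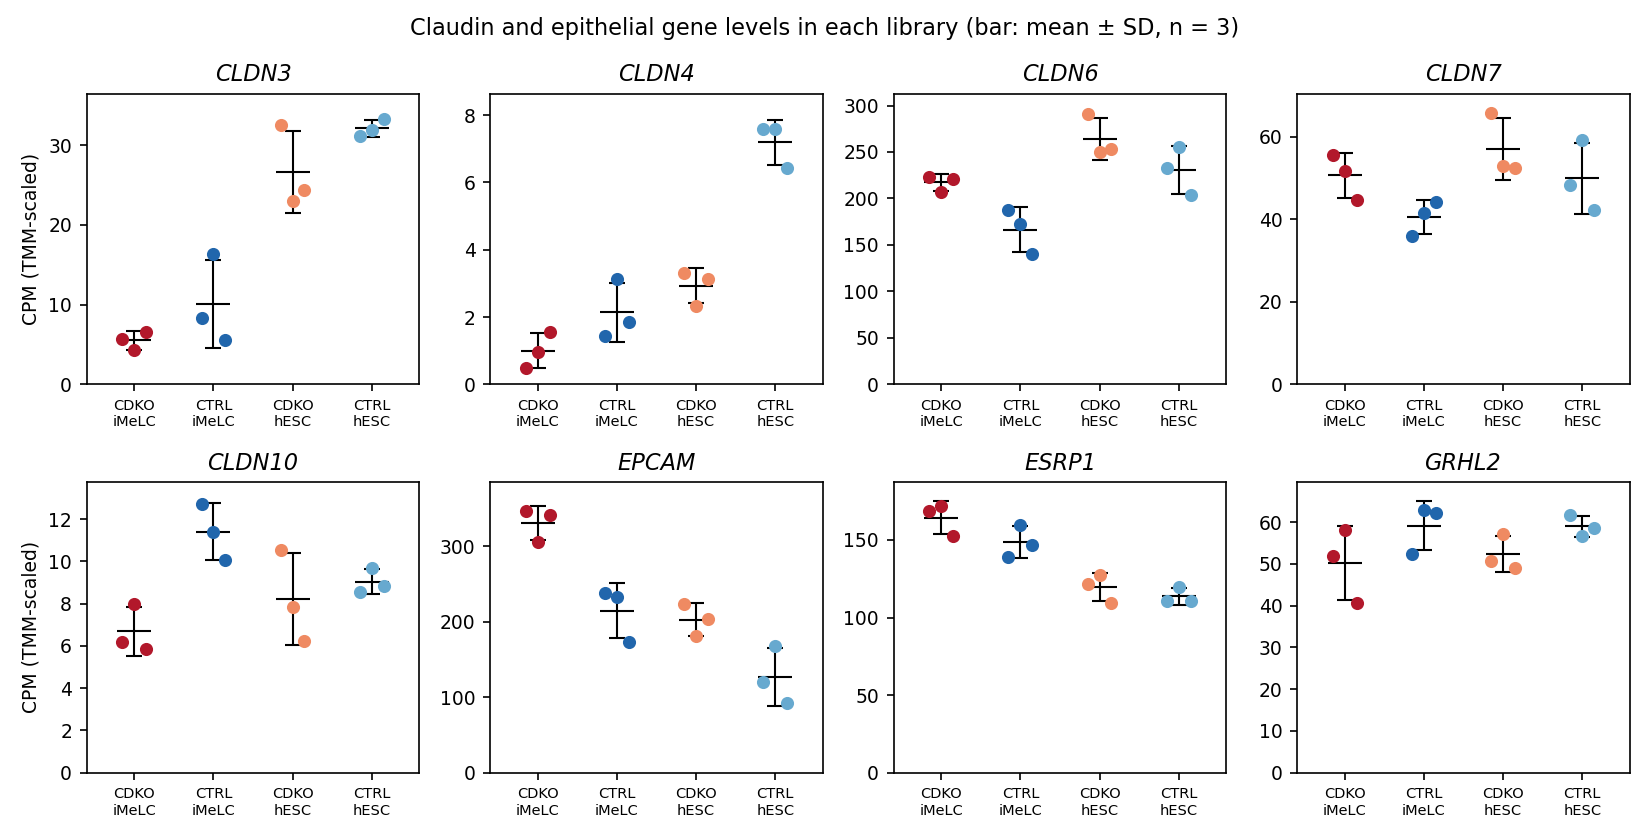
Level of each gene in every library, in CPM scaled over the 12 libraries by TMM (vertical axis, starting at 0 and differing between panels), for CDKO iMeLC, CTRL iMeLC, CDKO hESC and CTRL hESC; points are libraries and bars are mean ± SD (n = 3). The 3 CDKO hESC libraries of CLDN4 lie between 2.34 and 3.32 CPM, below the CTRL hESC libraries at 6.42 to 7.58 CPM, and CLDN3 and CLDN4 are lower in iMeLC than in hESC in both genotypes.

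In hESC the clearest difference between genotypes was in CLDN4. CLDN4 had 3.32, 2.34 and 3.13 CPM in CDKO hESC 1 to 3, against 7.58, 7.58 and 6.42 CPM in CTRL hESC 1 to 3. Behind these were 46, 48 and 61 counts in the CDKO libraries and 138, 150 and 140 counts in the CTRL libraries. Every CDKO library was below every CTRL library. CLDN4 fell by 1.29 on the log2 scale (SE 0.19, 95% interval -1.73 to -0.86, edgeR adjusted p = 0.0169), and it was the 1 gene of the 8 that passed the test, where 1.31% of 17222 genes tested were called and 0.714% were called as lower. In bulk RNA, fewer cells of a type and less RNA per cell cannot be told apart. The call was lost without CTRL hESC 1 (adjusted p = 0.0553), without CDKO hESC 1, 2 or 3 (0.0653, 0.107 and 0.0693) and in a fit over all 12 libraries (0.21), with log2 fold changes of -1.39 to -1.15 in the 6 omissions. It was kept in the other 5 of 10 alternative settings.

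EPCAM, which mediates adhesion between epithelial cells and binds CLDN7, differed in the other direction. EPCAM had 224, 181 and 204 CPM in CDKO hESC 1 to 3, against 119.8, 168 and 92.6 CPM in CTRL hESC 1 to 3, with no overlap. The log2 fold change was 0.69 (SE 0.18, 95% interval 0.29 to 1.09), and the edgeR adjusted p of 0.107 did not pass. DESeq2 called it (adjusted p = 0.00208), as did edgeR with no filter on low counts (1.93e-07) and edgeR without CTRL hESC 2, the highest CTRL library (log2 fold change 0.94, adjusted p = 0.00665). The other 7 of 10 alternative settings did not call EPCAM, with edgeR adjusted p up to 0.329. CLDN4 and EPCAM were the 2 genes of the 8 whose hESC groups did not overlap, a property shared by 22% of all genes tested.

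The other claudins overlapped between genotypes in hESC. CLDN3 had 32.5, 23.1 and 24.3 CPM in CDKO hESC and 31.2, 31.9 and 33.3 CPM in CTRL hESC, so that CDKO hESC 2 and 3 were below the CTRL libraries and CDKO hESC 1 was among them (log2 fold change -0.27, 95% interval -0.55 to 0.02, adjusted p = 0.340). CLDN6 had 290.5, 249.9 and 253 CPM in CDKO hESC and 233, 255 and 204 CPM in CTRL hESC. CLDN7, a claudin of basolateral membranes, had 65.6, 53.0 and 52.5 CPM in CDKO hESC and 48.1, 59.2 and 42.3 CPM in CTRL hESC. For both, CTRL hESC 2 lay within the CDKO range, and the log2 fold changes were 0.21 (95% interval -0.01 to 0.42) for CLDN6 and 0.20 (-0.09 to 0.49) for CLDN7. CLDN10, which forms channels for ions between cells, had 10.5, 7.83 and 6.25 CPM in CDKO hESC, on both sides of the 8.57, 9.70 and 8.85 CPM in CTRL hESC.

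The regulators ESRP1 and GRHL2 did not pass in hESC. ESRP1 had 122, 128 and 109.6 CPM in CDKO hESC and 111, 119.8 and 110.5 CPM in CTRL hESC, and its log2 fold change of 0.08 had a 95% interval of -0.10 to 0.27. GRHL2 had 50.8, 57.2 and 49.0 CPM in CDKO hESC and 61.6, 56.6 and 58.7 CPM in CTRL hESC (log2 fold change -0.16, 95% interval -0.35 to 0.03). CDKO hESC 3 stood apart in markers of other cell types, which touches all these comparisons. Its 7 markers of definitive endoderm summed to 159 CPM, beside 13.5 and 17.4 CPM in CDKO hESC 1 and 2 and 24.4, 7.12 and 9.22 CPM in CTRL hESC 1 to 3. Its 7 primitive streak and mesendoderm markers summed to 207 CPM, beside 61.0 and 86.5 CPM in CDKO hESC 1 and 2 and 24.8 to 61.1 CPM in CTRL hESC. NODAL made up 84.1 CPM of that sum, beside 46.0 and 60.0 CPM in CDKO hESC 1 and 2 and 17.5 to 34.2 CPM in CTRL hESC. Of 6 markers tested in each of these lists, all had log2 fold changes of CDKO over CTRL above 0 (medians 2.21 for endoderm and 1.57 for the streak), and edgeR called 0 endoderm and 1 streak marker. The part of this in the 8 genes' values was not tested, and without that library the log2 fold change of CLDN4 was -1.35.

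In iMeLC none of the 8 genes passed the edgeR test between genotypes, while 6 of them had an unadjusted p under 0.05 and DESeq2 called 2, CLDN10 and EPCAM. The edgeR test called 0.345% of 19999 genes. An unadjusted p under 0.05 was far more common: CLDN7, the highest of the 6 with an edgeR p of 0.0495, ranked 3923 among those genes. Over all genes DESeq2 called 712 as higher and 854 as lower. CLDN10 had 6.19, 8.004 and 5.87 CPM in CDKO1102, CDKO1105 and CDKO1312, against 12.7, 11.4 and 10.1 CPM in CTRL1101, CTRL1106 and CTRL1109. Each CDKO line was below each CTRL line. The log2 fold change was -0.80 (SE 0.18, 95% interval -1.21 to -0.38, edgeR adjusted p = 0.114), and it passed in DESeq2 (adjusted p = 0.00144) and in the fit over all 12 libraries (0.0368). It did not pass in the other 8 of 10 alternative settings, with edgeR adjusted p up to 0.414.

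EPCAM had 346, 305 and 342 CPM in CDKO1102, CDKO1105 and CDKO1312 and 237, 233 and 173 CPM in CTRL1101, CTRL1106 and CTRL1109. As in hESC, the CDKO libraries lay above all CTRL libraries of their stage. The log2 fold change was 0.60 (SE 0.13, 95% interval 0.30 to 0.90, edgeR adjusted p = 0.106), and DESeq2 (0.00338), edgeR with no filter (0.0288) and edgeR without CTRL1101 (0.0251) called it. The other 7 of 10 alternative settings did not, with edgeR adjusted p up to 0.408. CLDN6 had 224, 207 and 221 CPM in CDKO iMeLC and 187, 172 and 140 CPM in CTRL iMeLC, again with no overlap (log2 fold change 0.36, 95% interval 0.10 to 0.61, adjusted p = 0.163, and 0.0353 without CTRL1101). The other 9 of 10 alternative settings did not call CLDN6, with edgeR adjusted p up to 0.443. CLDN7 had 55.5, 51.7 and 44.5 CPM in CDKO iMeLC and 35.9, 41.5 and 44.1 CPM in CTRL iMeLC. Its groups were separated by the small gap between CDKO1312 and CTRL1109 (log2 fold change 0.29, adjusted p = 0.252). In all, 4 of the 8 genes had iMeLC groups that did not overlap, beside 26.5% of all genes tested.

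CLDN3 and CLDN4 were lower on average in CDKO iMeLC, with wide spread in the CTRL lines. CLDN3 had 5.63, 4.30 and 6.60 CPM in CDKO1102, CDKO1105 and CDKO1312, against 8.37, 16.3 and 5.604 CPM in CTRL1101, CTRL1106 and CTRL1109. CLDN4 had 0.490, 0.961 and 1.55 CPM in the same CDKO lines, against 1.44, 3.12 and 1.86 CPM in the same CTRL lines. Behind the CLDN4 values were only 22, 73 and 107 counts in the CDKO lines and 123, 269 and 190 counts in the CTRL lines. CTRL1106 was the highest line for both genes, and both pairs of groups overlapped. The log2 fold changes were -0.90 for CLDN3 (95% interval -1.78 to -0.02, adjusted p = 0.247) and -1.12 for CLDN4 (-2.21 to -0.02, adjusted p = 0.248). Without CTRL1106 they were -0.37 for CLDN3 and -0.74 for CLDN4. CTRL1106 also had the lowest sum of 7 primitive streak and mesendoderm markers, 198 CPM beside 605 and 856 CPM in CTRL1101 and CTRL1109 and 774 to 1006 CPM in CDKO iMeLC. NODAL was the largest part of each sum, with 143 CPM in CTRL1106, 344 and 269 CPM in CTRL1101 and CTRL1109 and 384 to 451 CPM in CDKO iMeLC. TBXT, EOMES and MIXL1 were also lowest in CTRL1106 among the iMeLC libraries. Definitive endoderm markers summed to 168 to 363 CPM in CDKO iMeLC and 19.6 to 137 CPM in CTRL iMeLC, and 7 neural ectoderm markers to 67.6 to 114 CPM in CDKO iMeLC and 34.6 to 48.4 CPM in CTRL iMeLC, neither with overlap. Most of the neural sum was OTX2, with 54.8 to 105 CPM in CDKO iMeLC and 28.2 to 37.1 CPM in CTRL iMeLC. DLK1 (5.01 to 6.70 and 2.20 to 4.21 CPM) did not overlap either, while PAX6, SOX1, ZIC1, NEUROG2 and MAP2 did. Trophectoderm and amnion markers summed to 28.1 to 43.8 CPM in CDKO iMeLC and 12.8 to 34.5 CPM in CTRL iMeLC, and 10 fibroblast markers to 1280 to 1485 CPM in CDKO iMeLC and 634, 653 and, in CTRL1101, 1534 CPM in CTRL iMeLC. The part of these differences in the values of the 8 genes was not tested.

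ESRP1 had 169, 172 and 152 CPM in CDKO iMeLC and 139, 159 and 147 CPM in CTRL iMeLC (log2 fold change 0.12, 95% interval -0.09 to 0.32). GRHL2 had 51.9, 58.1 and 40.5 CPM in CDKO iMeLC and 52.3, 62.9 and 62.2 CPM in CTRL iMeLC (log2 fold change -0.27, 95% interval -0.61 to 0.07). CDKO1312 was the lowest of the 6 iMeLC libraries for GRHL2, and the groups of both genes overlapped.

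**Figure D2:**
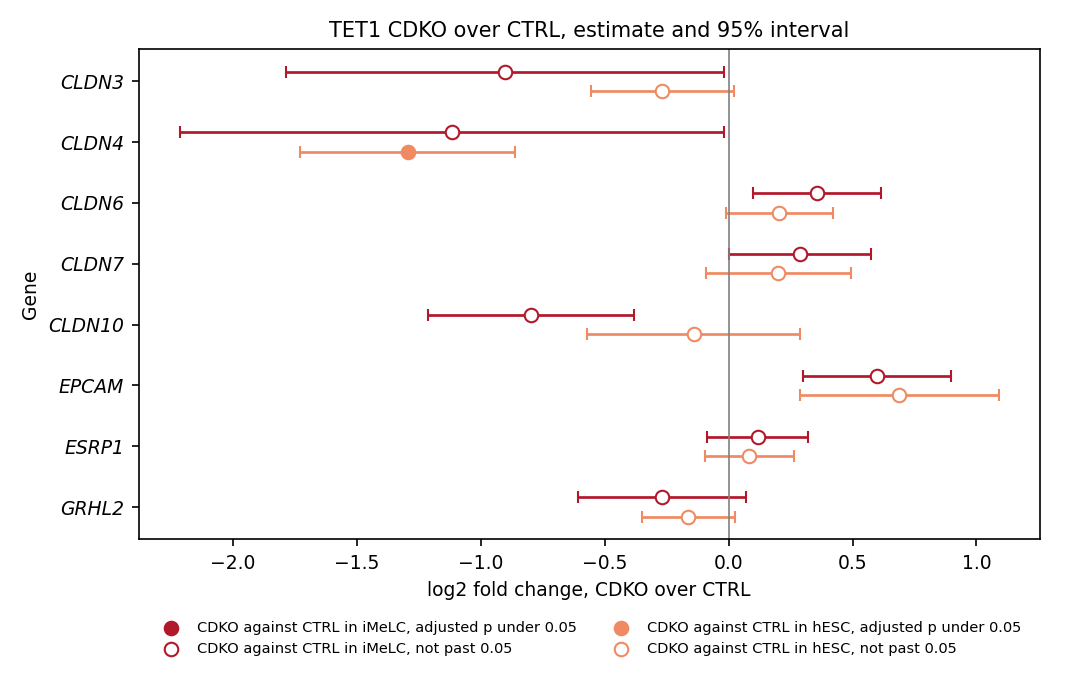
Log2 fold change of CDKO over CTRL (horizontal axis) for each gene in iMeLC and in hESC, from edgeR fits within a stage; points are estimates, lines 95% intervals, and filled points passed an adjusted p of 0.05. CLDN4 in hESC (-1.29) is the only filled point, and EPCAM lies above 0 in both stages (0.60 in iMeLC and 0.69 in hESC).

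The genotype difference itself was compared between stages by the interaction term over 12 libraries. None of the 8 genes passed in edgeR, 1 had an unadjusted p under 0.05, DESeq2 called 0, and edgeR called 0.0197% of 20262 genes. That 1 gene was CLDN10, whose log2 fold change of CDKO over CTRL was 0.62 lower in iMeLC than in hESC (interaction -0.62, 95% interval -1.22 to -0.02, adjusted p = 0.431). Its unadjusted edgeR p of 0.0425 ranked 2000 among all genes tested. For CLDN4 the interaction was 0.22 with a 95% interval of -0.91 to 1.36, which holds differences of either sign. For EPCAM it was -0.05 (95% interval -0.61 to 0.50). The CLDN3 interaction of -0.60 became -0.09 without CTRL1106 iMeLC.

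Between stages, 5 of the 8 genes changed in each genotype. CLDN3, CLDN4 and CLDN6 fell in iMeLC, and EPCAM and ESRP1 rose, both in CDKO and in CTRL. CLDN7, CLDN10 and GRHL2 did not pass in either genotype. Of 20262 genes tested, 59.8% were called in CDKO, 27.7% lower and 32.1% higher, and 49.4% in CTRL, 19.9% lower and 29.5% higher. The same lines recur in both stages, and the fit over 12 libraries treats them as independent. Primitive streak and mesendoderm markers summed to 774 to 1006 CPM in CDKO iMeLC and 61.0 to 207 CPM in CDKO hESC, and to 198 to 856 CPM in CTRL iMeLC and 24.8 to 61.1 CPM in CTRL hESC, and the part of this shift in the stage differences was not tested.

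The fall of CLDN3 was the largest of the 8 in CDKO. CLDN3 had 4.30 to 6.60 CPM in the 3 CDKO iMeLC libraries and 23.1 to 32.5 CPM in the 3 CDKO hESC libraries (log2 fold change -2.27, SE 0.32, 95% interval -2.95 to -1.59, edgeR adjusted p = 4.29e-05). In CTRL it had 5.604 to 16.3 CPM in iMeLC and 31.2 to 33.3 CPM in hESC (-1.67, SE 0.31, adjusted p = 5.28e-04). Neither pair of groups overlapped, and CTRL1106 was the iMeLC library nearest to the hESC libraries. CLDN4 had 0.490 to 1.55 CPM in CDKO iMeLC and 2.34 to 3.32 CPM in CDKO hESC (-1.53, SE 0.38, adjusted p = 0.00424), and 1.44 to 3.12 CPM in CTRL iMeLC and 6.42 to 7.58 CPM in CTRL hESC (-1.75, SE 0.37, adjusted p = 0.0015). Both calls of each gene held in all 12 omissions of a library. For CLDN4, CTRL1106 iMeLC lay within the range of the CDKO hESC libraries.

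CLDN6 fell less. It had 207 to 224 CPM in CDKO iMeLC and 249.9 to 290.5 CPM in CDKO hESC (log2 fold change -0.28, SE 0.11, edgeR adjusted p = 0.0458), and 140 to 187 CPM in CTRL iMeLC and 204 to 255 CPM in CTRL hESC (-0.47, SE 0.11, adjusted p = 0.00384). The CDKO call was lost with no filter on low counts (0.0973) and in 7 of 12 omissions, namely without any 1 hESC library or without CDKO1105 iMeLC, where adjusted p reached 0.229. CLDN7 had log2 fold changes of -0.17 in CDKO (95% interval -0.47 to 0.13) and -0.30 in CTRL (-0.60 to 0.00). The CTRL value, with an adjusted p of 0.0905, passed with RLE scaling (0.0358), in DESeq2 (0.0253) and without CTRL1109 or CDKO1312 iMeLC (0.0408 and 0.0495). It did not pass in the other 11 of 15 alternative settings, with edgeR adjusted p up to 0.456.

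EPCAM rose in iMeLC. It averaged 331 ± 22.3 CPM in CDKO iMeLC and 203 ± 21.4 CPM in CDKO hESC (log2 fold change 0.71, SE 0.18, edgeR adjusted p = 0.00468), and 214 ± 36.1 CPM in CTRL iMeLC and 127 ± 37.96 CPM in CTRL hESC (0.76, SE 0.18, adjusted p = 0.00369; SD, n = 3 each). ESRP1 rose as well, to 164 ± 10.6 CPM in CDKO iMeLC against 119.7 ± 9.13 CPM in CDKO hESC (0.46, adjusted p = 4.59e-04) and to 148 ± 10.3 CPM in CTRL iMeLC against 114 ± 5.37 CPM in CTRL hESC (0.39, adjusted p = 0.00203). The EPCAM and ESRP1 groups did not overlap between stages in either genotype. In all, the stages did not overlap for 5 of the 8 genes in CDKO, beside 70.7% of all genes tested, and for 6 of the 8 in CTRL, beside 54.9%.

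GRHL2 did not pass between the stages, with log2 fold changes of -0.06 in CDKO (95% interval -0.33 to 0.21) and 0.00 in CTRL (-0.26 to 0.27). CLDN10 had log2 fold changes of opposite sign and did not pass in either genotype. It averaged 6.69 ± 1.15 CPM in CDKO iMeLC and 8.21 ± 2.17 CPM in CDKO hESC (-0.29, 95% interval -0.71 to 0.14), and 11.4 ± 1.34 CPM in CTRL iMeLC and 9.04 ± 0.588 CPM in CTRL hESC (0.33, 95% interval -0.09 to 0.75; SD, n = 3 each). In CTRL its iMeLC libraries were all above its hESC libraries.

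**Figure D3:**
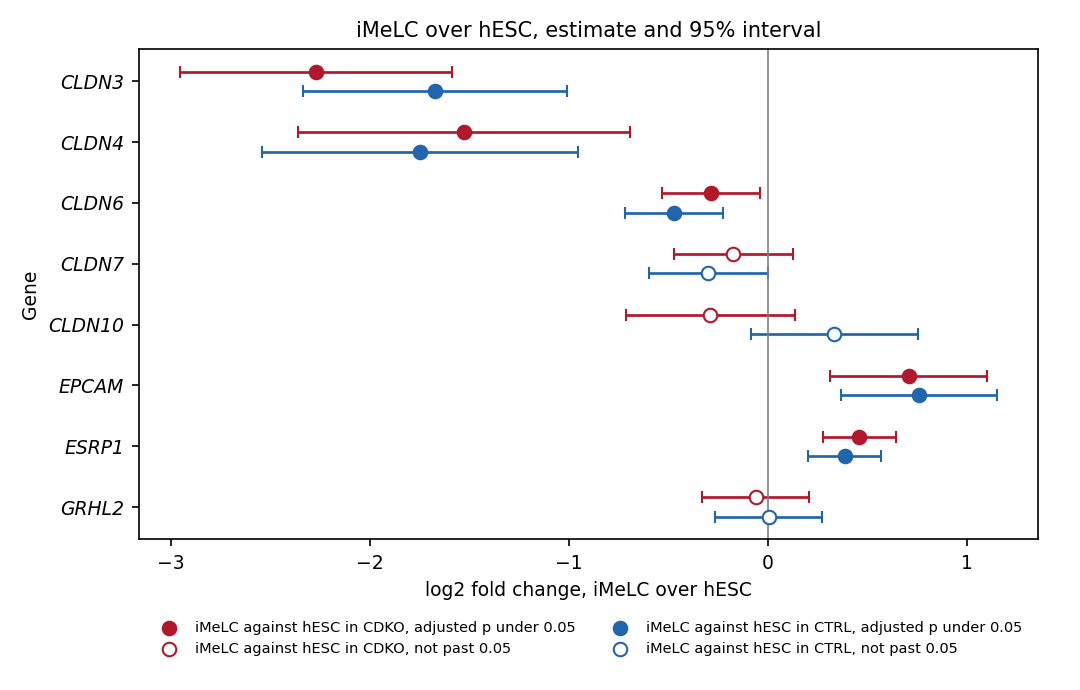
Log2 fold change of iMeLC over hESC (horizontal axis) for each gene in CDKO and in CTRL, from the edgeR fit over 12 libraries; points are estimates, lines 95% intervals, and filled points passed an adjusted p of 0.05. CLDN3, CLDN4 and CLDN6 lie below 0 and EPCAM and ESRP1 above 0 in both genotypes, with CLDN3 at -2.27 in CDKO and -1.67 in CTRL.

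The genes also differed in how evenly the libraries of a group agreed. The highest CTRL iMeLC library was 2.91 times the lowest for CLDN3 and 2.17 times for CLDN4, and the highest CDKO iMeLC library was 3.16 times the lowest for CLDN4. For ESRP1 this ratio was at most 1.16 in any group. After the group means were taken out of log2 CPM, EPCAM and CLDN6 followed each other most closely among the 8 over the 12 libraries (Pearson r = 0.90), then ESRP1 and GRHL2 (0.72), ESRP1 and CLDN7 (0.60) and CLDN3 and CLDN6 (0.53). CLDN3 and CLDN4 had r = 0.51. These are descriptions over libraries that share depth and scaling.

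By the same measure, over genes averaging at least 5 CPM in each stage, the gene most like CLDN3 was SOX21 (r = 0.96), a transcription factor gene of the SOX family. SOX21 was highest among the CTRL iMeLC lines in CTRL1106 with 18.1 CPM, beside 5.52 and 2.90 CPM in CTRL1101 and CTRL1109, the pattern given above for CLDN3. The gene most like CLDN4 was PHPT1 (0.96), most like CLDN6 MRPL12 (0.97), most like CLDN7 PIGA (0.96) and most like CLDN10 ZBTB6 (0.90). EPCAM was most like RPS6KA2 (0.96), ESRP1 most like PARP9 (0.99) and GRHL2 most like DEK (0.97). The next in likeness were SERPING1 for CLDN3, EEPD1 for CLDN4, LAMC1 for CLDN6, MBTPS2 for CLDN7, RNF217 for CLDN10, BSG for EPCAM, PAPOLA for ESRP1 and PLXDC2 for GRHL2. All were picked as the highest r among 10755 genes (10756 for CLDN4) over 12 libraries. A search of that size yields high r by itself, so these values are no measure of shared regulation.

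Because CLDN3 and CLDN4 adjoin, the other genes within 100 kb of either were read as well. This set was added after the values of both claudins had been seen. METTL27, whose RefSeq promoter is printed above, followed CLDN4 in direction. It had 5.92, 6.76 and 5.89 CPM in CDKO hESC 1 to 3, against 9.18, 9.70 and 13.0 CPM in CTRL hESC 1 to 3. In iMeLC it had 1.54, 1.87 and 1.65 CPM in the CDKO lines and 2.81, 5.01 and 4.29 CPM in the CTRL lines. The CDKO libraries were the lower ones in both stages with no overlap, yet neither test passed (log2 fold change -0.77, SE 0.17, edgeR adjusted p = 0.068 in hESC, and -1.29, SE 0.28, adjusted p = 0.107 in iMeLC). Groups did not overlap for 22% of all genes tested in hESC and 26.5% in iMeLC, and the same lines recur in both stages.

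Between stages METTL27 fell by 1.87 on the log2 scale in CDKO (adjusted p = 1.62e-05) and by 1.40 in CTRL (adjusted p = 1.81e-04). None of the 5 tested genes on the other side of CLDN3 passed between genotypes. ABHD11, an abhydrolase gene, had log2 fold changes of CDKO over CTRL of 0.03 in iMeLC and 0.02 in hESC, BUD23, an rRNA methyltransferase gene, 0.05 and 0.01, and DNAJC30, a mitochondrial chaperone gene, 0.02 and 0.01. The values were -0.22 and 0.09 for STX1A and -0.23 and -0.50 for VPS37D, and TMEM270 did not pass the filter on low counts. In the stage comparison ABHD11 (-0.70 in CDKO and -0.75 in CTRL) and DNAJC30 (-0.50 and -0.54) fell like METTL27, and by less. BUD23 (0.88 in CDKO and 0.81 in CTRL) and STX1A (0.57 and 0.85) rose, so the genes around CLDN3 and CLDN4 did not all move one way.

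**Figure D4:**
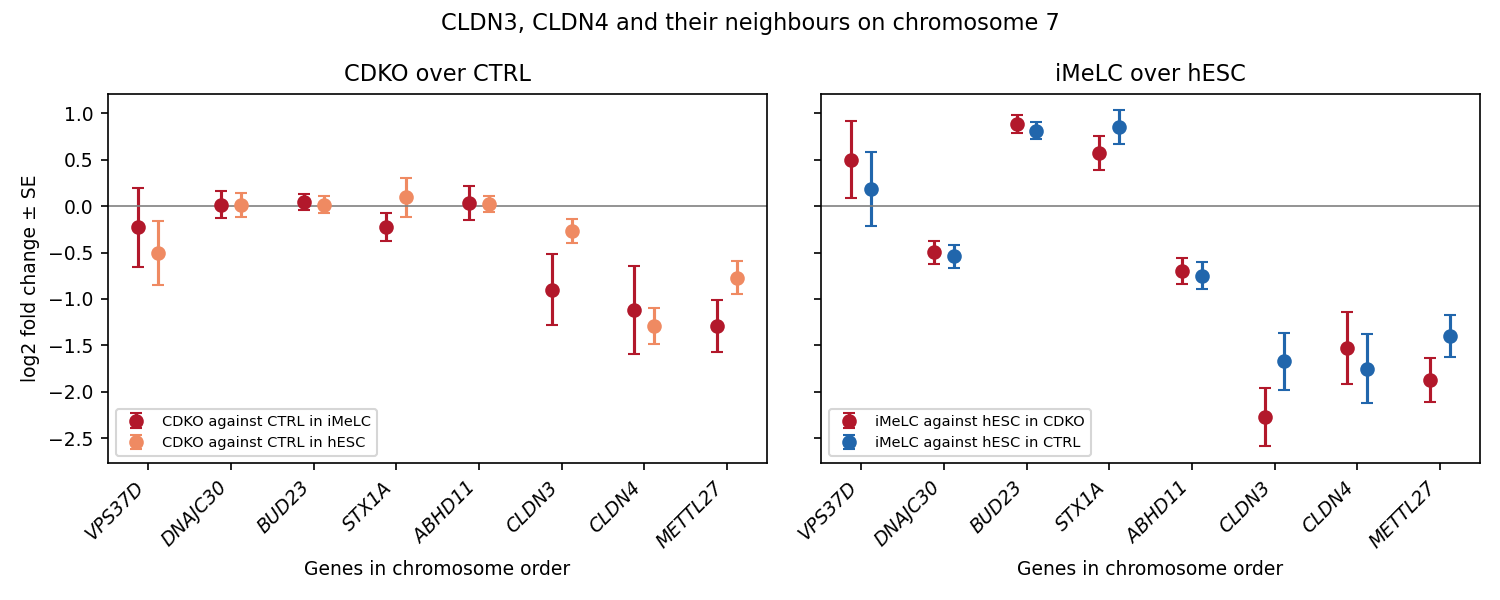
Log2 fold change ± SE (vertical axis) of CLDN3, CLDN4 and 6 neighbouring genes in chromosome order, CDKO over CTRL at left and iMeLC over hESC at right. CLDN3, CLDN4 and METTL27 are the lowest 3 between genotypes in iMeLC and in both stage comparisons, while ABHD11, BUD23 and DNAJC30 lie near 0 between genotypes.

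The 6 lists of related genes place the 8 genes among others of their kind, with 86 genes listed outside the 8. Between genotypes edgeR called 1 of 71 tested in hESC and 1 of 75 tested in iMeLC, with 25 and 18 at an unadjusted p under 0.05. Over all genes edgeR called 1.31% in hESC and 0.345% in iMeLC. Small unadjusted p were common there too. An edgeR p of 0.0616 (CLDN6) ranked 3164 of 17222 genes in hESC, and a p of 0.0495 (CLDN7) ranked 3923 of 19999 in iMeLC. DESeq2 called more, 2 higher and 6 lower in hESC and 4 higher and 4 lower in iMeLC. Over all genes its calls were 310 higher and 308 lower in hESC and 712 higher and 854 lower in iMeLC. In hESC the gene called by edgeR was AP1M2, a subunit of the adaptor that sorts proteins to the basolateral membrane of epithelial cells. It had 24.9, 26.7 and 27.2 CPM in CDKO hESC and 37.5, 33.9 and 37.8 CPM in CTRL hESC (log2 fold change -0.46, SE 0.09, adjusted p = 0.0413), a call that held in 1 of 6 omissions, that of CTRL hESC 2. In iMeLC it was KLF5, a transcription factor of epithelia, with 55.1, 47.5 and 53.5 CPM in CDKO iMeLC and 32.8, 27.1 and 29.4 CPM in CTRL iMeLC (0.78, SE 0.11, adjusted p = 0.0439), also held in 1 of 6 omissions, that of CTRL1101.

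Other claudins and tight junction partners did not pass between genotypes in edgeR. DESeq2 called CLDN19, TJP3, AP1M2, RAB25 and the regulators OVOL2 and ELF3 as lower and TFAP2C and SPINT1 as higher in hESC, and CLDN19, CLDN11, LLGL2 and RAB25 as lower and KRT8, KLF4, KLF5 and FN1 as higher in iMeLC. SPINT1 and KLF4 are named here only for these calls, after their values were seen. The values that follow are edgeR's. Among 17 further claudins, 7 were tested in hESC and 9 in iMeLC. CLDN19 and CLDN11 had the smallest p of these in both stages, with log2 fold changes of CDKO over CTRL of -1.41 (adjusted p = 0.0593) and -0.93 (0.181) in hESC, and -1.59 (0.167) and -2.17 (0.098) in iMeLC. The tight junction protein OCLN had 0.34 (0.0768) and the scaffold TJP3 -0.90 (0.118) in hESC, and the polarity proteins LLGL2 and SCRIB -0.56 (0.102) and -0.21 (0.228) in iMeLC. TFAP2C, a transcription factor of trophectoderm and germ cell precursors, had 0.41 (0.0557) and OVOL2, a repressor of mesenchymal genes, -0.69 (0.0768) in hESC. KRT18 and KRT8, the keratins of simple epithelia, had 0.38 (0.280) and 0.36 (0.294) in hESC, and KRT8 and KRT7 had 0.63 (0.183) and -1.03 (0.273) in iMeLC.

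The surface genes RAB25 and MUC1 had log2 fold changes of -0.87 (adjusted p = 0.138) and -0.96 (0.175) in iMeLC, with no overlap of groups. MUC1 levels were low, with means of 0.623 CPM in CDKO iMeLC and 1.19 CPM in CTRL iMeLC. Of 12 epithelial-mesenchymal transition factors and mesenchymal markers, 0 passed in either stage with edgeR, and 2 in hESC and 4 in iMeLC had an unadjusted p under 0.05. DESeq2 called 0 in hESC and 1 in iMeLC. Over the 6 omissions in iMeLC, edgeR called 0 to 7 as higher, with 7 and a median log2 fold change of 1.64 without CTRL1101. Calls rose over all genes in that omission, with 1469 genes called as higher, beside 16 in the fit of all 6 libraries. In CTRL1101, VIM (1986 CPM) and ZEB2 (52.0 CPM) lay within the CDKO iMeLC range, while PRRX1 (20.2 CPM) and FN1 (676 CPM) lay below it. The median log2 fold change of the 12 genes, CDKO over CTRL, was 0.84 in iMeLC, beside -0.03 for all genes tested, and 0.32 in hESC, beside 0.00. PRRX1, a mesenchymal transcription factor, had 1.78 (0.153) and the matrix protein FN1 0.84 (0.104) in iMeLC, and PRRX1 1.41 (0.115) and N-cadherin, CDH2, 0.62 (0.249) in hESC. The interaction called 0 of 76 list genes in edgeR and 0 in DESeq2, with 7 at an unadjusted p under 0.05. Over all 20262 genes tested, an edgeR interaction p of 0.0425 (CLDN10) ranked 2000.

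Between stages the same lists moved in mixed directions. Of 9 further claudins tested, 1 rose and 3 fell in CDKO and 1 rose and 2 fell in CTRL (median log2 fold change -0.60 in CDKO and -0.27 in CTRL, beside -0.08 and -0.01 for all genes tested). CLDN12 fell by 0.60 in CDKO and by 0.55 in CTRL, and CLDN9 by 1.94 and by 2.1, while CLDN1 rose (1.07 and 0.64, the CTRL call held in 3 of 12 omissions) and CLDN23 fell in CDKO (-0.65). CLDN9 was near the floor, with means of 0.343 CPM in CDKO iMeLC, 0.345 in CTRL iMeLC, 1.31 in CDKO hESC and 1.48 in CTRL hESC. Of 22 tight junction partners and polarity proteins, 9 rose and 7 fell in CDKO and 11 rose and 8 fell in CTRL (medians 0.02 and 0.12). The scaffolds DLG1 (1.84 in CDKO and 1.48 in CTRL), PARD3 (2.002 and 1.62), PATJ (1.46 and 1.40) and MPDZ (1.04 and 1.06) had the smallest adjusted p and rose.

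Of 15 epithelial surface, adhesion and protease genes tested, 4 rose and 7 fell in CDKO and 5 rose and 5 fell in CTRL (medians -0.25 and -0.17). AP1M2 (1.28 in CDKO and 0.99 in CTRL) and P-cadherin, CDH3 (0.67 and 0.77), rose like EPCAM, and the surface protein CD24 (-1.55 and -1.57) and the receptor ERBB3 (-0.72 and -0.80) fell. Of 5 simple epithelial keratins, 3 rose and 1 fell in CDKO and 3 rose and 0 fell in CTRL (medians 0.65 and 0.56). KRT8 (1.79 and 1.48), KRT18 (0.65 and 0.56) and KRT80 (1.39 and 1.94) rose, and KRT7 fell in CDKO (-2.12). KRT80 was near the floor, with means of 0.634 CPM in CDKO iMeLC, 0.397 in CTRL iMeLC, 0.240 in CDKO hESC and 0.105 in CTRL hESC. The KRT18 call held in 10 of 12 omissions in CDKO and 4 of 12 in CTRL, and the KRT80 call in 6 and 8 of 12.

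Of 13 epithelial transcription and splicing regulators tested, 2 rose and 3 fell in CDKO and 1 rose and 5 fell in CTRL (medians -0.14 and -0.53). KLF5 rose (2.06 in CDKO and 1.88 in CTRL). ESRP2, the paralogue of ESRP1, fell (-0.45 and -0.40) while ESRP1 rose, and OVOL1 (-1.02 and -1.07) and ELF3 (-1.07 and -1.33), both transcription factors of differentiated epithelia, fell. Of 12 epithelial-mesenchymal transition factors and mesenchymal markers, 11 rose in CDKO and 10 in CTRL and 0 fell (medians 2.58 and 2.14). FN1 (2.77 and 2.13), CDH2 (3.67 and 3.52), the intermediate filament VIM (3.25 and 2.92) and PRRX1 (4.26 and 3.88) rose in the same iMeLC libraries in which EPCAM and ESRP1 rose.

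**Figure D5:**
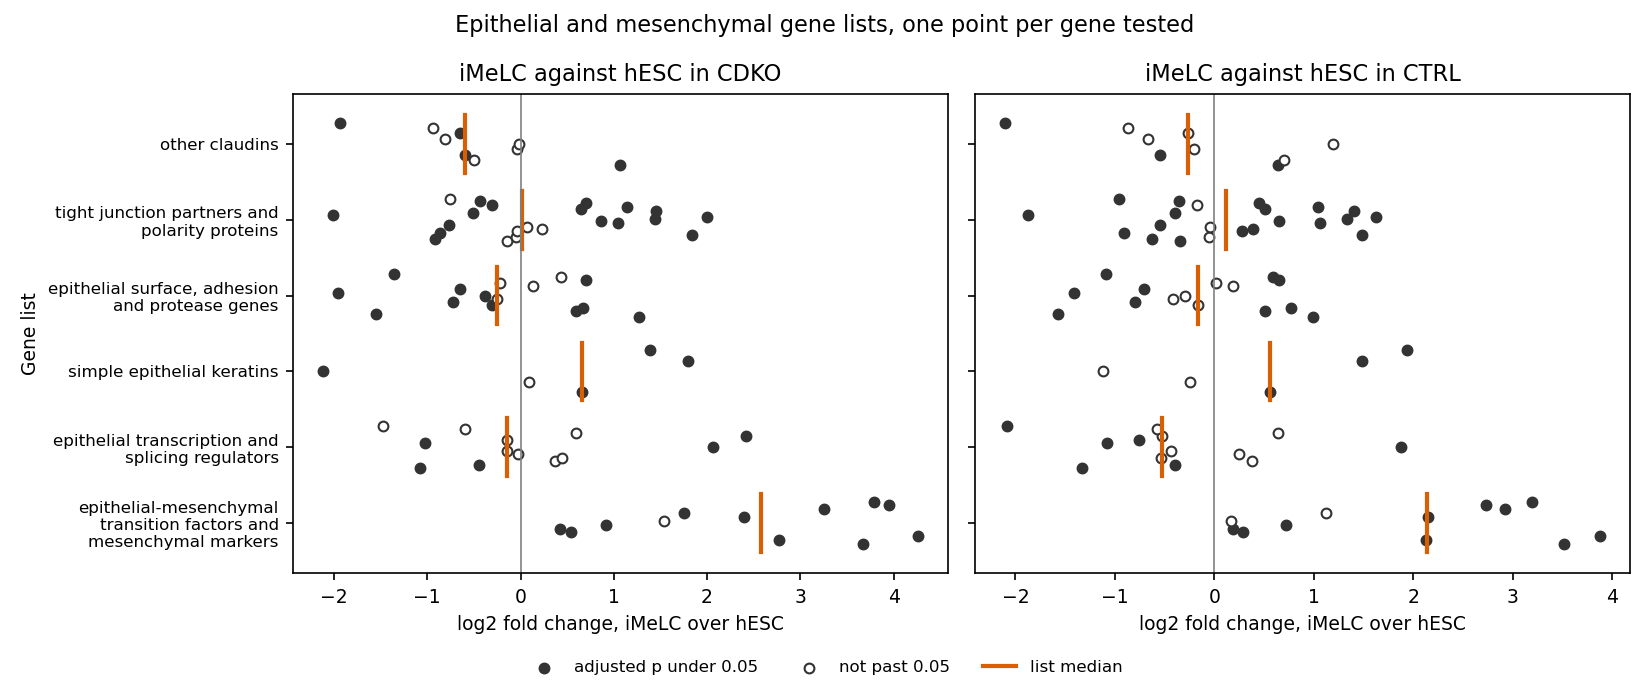
Log2 fold change of iMeLC over hESC (horizontal axis) for each tested gene of the 6 lists, in CDKO at left and CTRL at right; filled points passed an adjusted p of 0.05 and the orange bar is the list median. The mesenchymal list lies above 0 in both panels (medians 2.58 and 2.14), and the epithelial lists hold points on both sides of 0.

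On GRCh38 in GENCODE release 29, CLDN6 lies at chr16:3014712-3020071 and CLDN7 at chr17:7259903-7263983, both on the minus strand, CLDN10 at chr13:95433604-95579759 and EPCAM at chr2:47345158-47387601, both on the plus strand, and ESRP1 and GRHL2 on chromosome 8. Some of these counts carry an uncertainty of assignment, because the sources used here do not say whether counting used strand. Exons of CLDN6 overlap those of TNFRSF12A, exons of CLDN7 those of ELP5, exons of CLDN10 those of DZIP1 and exons of GRHL2 those of AP001207.3, all on the opposite strand, and exons of CLDN7 also overlap AC003688.1 on the same strand. CLDN3, CLDN4, EPCAM and ESRP1 have no exon overlap in that annotation. Among the list genes named, CLDN11, CLDN12, ERBB3, MUC1, SCRIB, OVOL2, ELF3 and ESRP2 overlap another gene on the same strand, and PATJ, DLG1, CDH3, SPINT1, KRT7, KRT8, KRT18, OVOL1, ELF3, ESRP2, CDH2 and VIM on the opposite strand. OCLN, CD24, KLF4, KRT8 and KRT18 also have annotated pseudogenes.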

How the data were processed

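Total RNA of pelleted or sorted cells was made into stranded libraries, per the labels' protocols. The authors deposited raw whole-number counts for each gene symbol, with the hESC and the iMeLC libraries in separate tables. FastQC, cutadapt, edgeR and GRCh38 were used, per the submitters' processing notes. The sources used here do not name the aligner, counter, annotation or strand setting. From these counts, CPM were computed over the 12 libraries with TMM scaling, and CPM per kb by merged exon length in GENCODE release 29. edgeR 4.0.16 (R 4.3.3; filterByExpr, TMM, quasi-likelihood test, two-sided, Benjamini-Hochberg adjustment over all genes tested, threshold 0.05) compared genotypes within a stage on 6 libraries and stages, with the interaction, over 12. The spread of that fit gave SE and 95% intervals. Likeness between genes was Pearson's r of log2(CPM + 0.1) after group means were removed. Alternatives were DESeq2 1.42.0, RLE scaling, no filter, a fit over 12 libraries for genotype, and leaving out each library, and for levels per kb a second transcript length, added after seeing the data. The procedures were tested on simulated data. The iMeLC columns name the line, while those of hESC carry only a genotype and a number. Replicates differed by a chi-square of 4.41 to 198 per gene, so none was counted as a repeat of another. All 8 genes are named, with up to 4 called genes per list by smallest adjusted p (otherwise the 2 smallest p) and the 2 genes most like each of the 8. The 8 genes, the lists and the tests were chosen with earlier results of these data known.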

Additional observations from a re-analysis of the deposited data

How the results depend on the processing

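The stage calls of CLDN3, CLDN4, EPCAM and ESRP1 kept direction and side of the threshold under DESeq2, RLE scaling, no filter and all 12 omissions, in both genotypes. The genotype results were less stable. In hESC the 1 called gene of the 8 became 2 with DESeq2, 2 with no filter, 0 in the fit over all 12 libraries and 0 to 2 over the 6 omissions, while the 226 genes called of all became 618, 1228, 72 and 5 to 493. In iMeLC the 0 of the 8 became 2 with DESeq2, 1 with no filter, 1 in the fit over all 12 libraries and 0 to 2 over the omissions, and the 69 of all genes became 1566, 428, 1310 and 15 to 2646, highest without CTRL1101. For the interaction, the 4 genes called of all became 217 with DESeq2, 29 with no filter and 1 to 439 over the omissions. For the 6 gene lists between genotypes, DESeq2 called 8 genes in each stage where edgeR called 1 in each. The causes were not tested. In the fit over all 12 libraries CLDN4 in hESC had a log2 fold change of -1.30.

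The log2 fold change of GRHL2 between stages in CTRL turned to -0.087 with DESeq2 and to -0.088 with RLE scaling. Over the omissions it was -0.089 to 0.062, and other values near 0 also crossed it. These were CLDN10 between genotypes in hESC (-0.36 to 0.026), GRHL2 between stages in CDKO (-0.25 to 0.027), and the interactions of CLDN4 (-0.25 to 0.58), CLDN7 (-0.014 to 0.24), EPCAM (-0.30 to 0.13), ESRP1 (-0.013 to 0.13) and GRHL2 (-0.20 to 0.045). No paired analysis was possible because the hESC columns do not name the line, so hESC and iMeLC libraries of one line could not be matched, and the line numbers differ between genotypes. CLDN4 is limited by low counts, with 46 to 61 per CDKO hESC library and 22, 73 and 107 in CDKO1102, CDKO1105 and CDKO1312 iMeLC. Its stage fall in CDKO and its iMeLC genotype values rest on these counts.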
